A study of Mus musculus with 22 samples.

Results

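Genes of major histocompatibility complex (MHC) class I antigen presentation were followed in mouse fibroblasts re-entering the cell cycle. The set was named by symbol: the heavy chains H2-D1 and H2-K1, the light chain B2m, the peptide transporter subunits Tap1 and Tap2, the loading chaperone Tapbp, the immunoproteasome subunits Psmb8, Psmb9 and Psmb10, and the transcriptional coactivator Nlrc5. Of these 10 genes, 9 had a row in the expression table of 11208 genes, and Psmb8 was not analysed here. All 9 passed the filter on low values, which removed no gene of the table. The lowest mean of a gene in the table was 99.6, so genes may have been left out for low values before deposit. Whether Psmb8 was one of them was not tested.

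MHC class I molecules carry short peptides from the cell's own proteins to its surface, where CD8 T cells read them. The proteasome cuts the peptides, and in its immunoproteasome form Psmb9 and Psmb10 take the places of the constitutive subunits Psmb6 and Psmb7. Tap1 and Tap2 together pump the peptides into the endoplasmic reticulum, and tapasin, the product of Tapbp, holds the empty heavy chain and its light chain beta-2-microglobulin at the transporter until a peptide fits. Interferon signalling, in part through Irf1, raises many of these genes in fibroblasts, and Nlrc5 acts at the promoters of the class I genes themselves.

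RNA was measured in 22 libraries of polyadenylated RNA from NIH/3T3, an established mouse embryonic fibroblast line, in 11 groups of 2 libraries. One line carried a stably integrated construct for doxycycline-inducible E2F1, a transcription factor that drives entry into S phase, and the other carried the empty vector (EV). All cells were starved for 48 h in 0.25% serum. The E2F1 line and the EV line were then given 500 ng/ml doxycycline and collected at 0, 2, 6 and 12 h, and the EV line was also given 10% serum and collected at 2, 6 and 12 h. The E2F1 line was not given serum, and the serum groups share their 0 h libraries with the EV doxycycline groups. The labels do not say whether the 2 libraries of a group came from separate cultures or whether a line is 1 clone, so the p-values measure the spread between these libraries, which may be technical.

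The deposited normalized counts summed to between 34014608 and 46057140 per library. The serum libraries summed to between 36963986 and 46057140, and the others to at most 37401882. In the E2F1 line E2f1 itself was at 1703 and 1637 normalized counts before the drug, 1535 and 1755 at 2 h, 3806 and 3602 at 6 h and 2683 and 2845 at 12 h of doxycycline. In the EV line it stayed between 1307 and 1655 with doxycycline and was at 4615 and 4247 after 12 h of serum. The induced libraries at 2 h therefore did not stand above 0 h in E2f1. Ddx3y, a Y-linked helicase gene, separated the lines: it was between 316 and 580 in the E2F1 line and between 4 and 9 in the EV line at 0 h and at 12 h of doxycycline. In the EV libraries at 2 h it was intermediate, at 103 and 71 with doxycycline and at 132 and 170 with serum, and at the other EV times it was between 18 and 48. The EV libraries labelled 2 h therefore stand apart, and whether they hold cells of both lines was not tested. Results at 6 and 12 h were refitted without the libraries at 2 h, and the results at 2 h rest on them. All 12 fibroblast markers listed were in the table, with summed levels between 696764 and 1427417, while none of 8 epithelial and none of 6 endothelial markers was listed. Of 10 myeloid and dendritic markers only Csf1r was present, at 33 to 229 without serum and 365 to 735 with it, and of 6 MHC class II genes H2-DMa and H2-DMb1 were present.

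The promoter sequences introduce how these genes are arranged, because Psmb9 and Tap1 share one. On GRCm38, Psmb9 lies on the minus strand at chr17:34181987-34187764 and Tap1 on the plus strand at chr17:34187553-34197225, head to head, with 225 bases between their RefSeq start sites. The gene models overlap by 212 bases on opposite strands, and use of strand in counting is not given in the sources used here, so reads in the overlap cannot be assigned with certainty. Between the start sites stands 1 match to an E2F word, searched on both strands as TTTCCCGC, TTTCGCGC, TTTGCCGC or TTTGGCGC, which 744 of 32851 RefSeq promoters of 300 bases hold (2.26%). The match begins 135 bases before the Tap1 start and 98 before the Psmb9 start, and it is a single site read from either side. Other words were searched too, and CCAAT (37.4% of promoters) and TGACG (20.8%) also match between these start sites. The Psmb10 promoter matched none of the words searched. Windows of 30 bases are shown 5′ to 3′ on the strand of the gene, from RefSeq promoters on GRCm38.p6, with the matched word in capitals; Tap1 (plus) and Psmb9 (minus) are both chr17:34187410-34187439.
Tap1: ttctaccagcaTTTGGCGCccagagcaaac
Psmb9: gtttgctctggGCGCCAAAtgctggtagaa

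Windows of the classical heavy chain promoters are shown because they differ by 1 base, so their shared words can be read side by side. Each holds GGGGATTCC, a kappa B word, which 82 of the 32851 promoters hold on either strand (0.25%), and the interferon word GAANNGAAA (7.52% of promoters) on the opposite strand at the window's end. The H2-K1 window is chr17:34000429-34000458 on the minus strand and the H2-D1 window is chr17:35262923-35262952 on the plus strand. The windows differ by A18T, from H2-K1 to H2-D1, counted from 1 at the 5′ end. The B2m window, chr2:122147540-122147569 on the plus strand, holds GAAANNGAA, a variant of the interferon word, found in 8.56% of promoters. The words were chosen with these sequences in view, and a match is a description of letters, not of binding. RefSeq promoters matched 8 of the 10 genes, and Tap2 and Nlrc5 were the others.
H2-K1: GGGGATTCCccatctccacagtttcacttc
H2-D1: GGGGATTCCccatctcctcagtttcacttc
B2m: aagaacatGAAACTGAAaatgggaaagtcc

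Per kilobase of exon, the mean over all libraries ran from 10775.8 normalized counts for B2m and 4652.4 for H2-D1 through 2374.0 for Tapbp, 624.1 for H2-K1, 362.3 for Tap2, 293.0 for Psmb10 and 168.5 for Tap1 to 60.3 for Psmb9 and 20.1 for Nlrc5. B2m and H2-D1 thus had the highest means on this scale, while the other heavy chain, H2-K1, stood below Tapbp. Psmb9 and Nlrc5 had the lowest means over all libraries, which for Psmb9 pool groups of very different level. On the same scale the constitutive subunit Psmb6 was at 2275.8 and Psmb7 at 859.1. In normalized counts, Psmb9 had group means of 776 and 986 in the E2F1 line at 6 and 12 h. Its other group means were between 17.5 and 144.5, so its row in the table may rest on the groups where it is high.

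**Figure D1:**
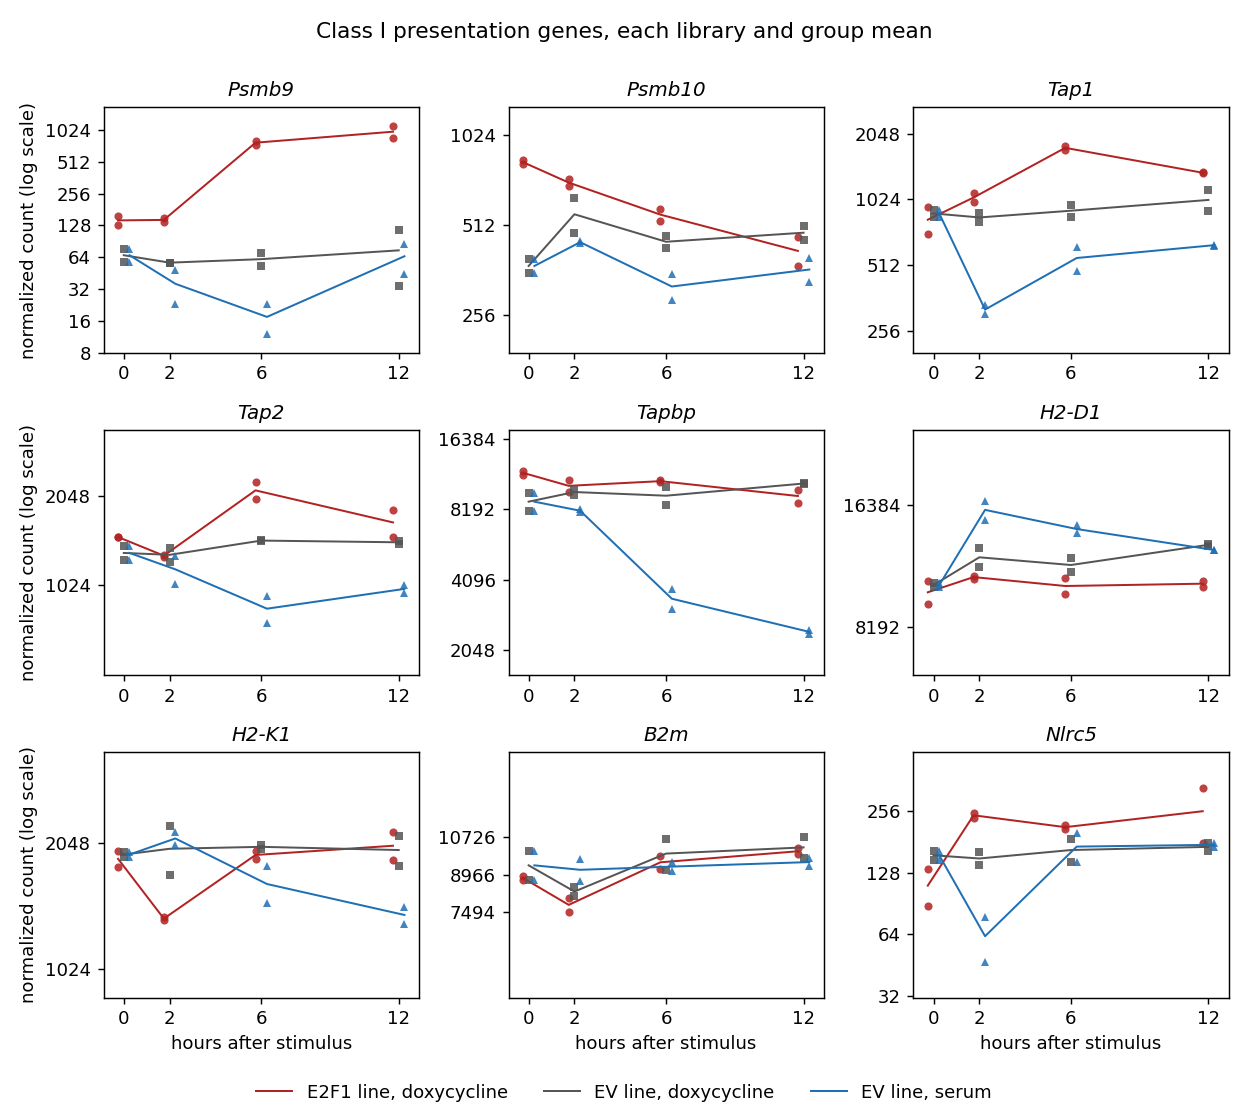
Normalized counts of the 9 class I presentation genes (y, log scale, each panel with its own range) against hours after the stimulus (x); each point is a library, lines join group means, and the EV 0 h libraries are drawn in both EV series. Psmb9 in the E2F1 line reached 740 to 1118 at 6 and 12 h, while Tapbp with serum ended at 2502 and 2397.

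The first question was how these genes changed when E2F1 was induced in starved cells. At 6 h, Psmb9, Tap1, Nlrc5 and Tap2 rose and Psmb10 fell, while H2-D1, H2-K1, B2m and Tapbp did not pass the test. At 12 h, Psmb9, Nlrc5 and Tap1 were higher and Psmb10 and Tapbp lower than at 0 h. Differences are log2 changes of normalized counts plus 1 from limma with Benjamini-Hochberg adjustment over all 11208 genes, called at an adjusted p below 0.05. The count was 5 of 9 genes at 6 h, where 51.7% of all genes were called (28.8% higher, 22.9% lower). It was 5 of 9 again after 12 h, where 61.5% of all genes were called (31.8% higher, 29.7% lower), so the share of class I genes called was near the background at both times. The median log2 change of the 9 genes was 0.11 at 6 h and 0.15 at 12 h, beside -0.03 and -0.02 for all genes. At 2 h, 0 of 9 passed, where 1.86% of all genes did. By limma the unadjusted p was under 0.05 for 4 of them, H2-K1, B2m, Tap1 and Nlrc5. The share of all genes under that unadjusted p is not given here, so this count stands without a background.

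Doxycycline alone, in the EV line, called few of them. H2-D1 was higher at 12 h and Psmb10 at 2 h (0.56), in the libraries where Ddx3y was intermediate, while Psmb10 was also higher in the E2F1 line at 0 h. The part of this in the Psmb10 value was not tested. The counts were 1 of 9 at 2 h (7.35% of all genes called), 0 of 9 at 6 h (0.134%) and 1 of 9 at 12 h (4.17%). At 6 h the limma unadjusted p was under 0.05 for 0 of the 9, a count given without the share of all genes. Both calls are lost when certain single libraries are left out: Psmb10 at 2 h without either 0 h library or without EV 2 h replicate 2, and H2-D1 at 12 h without either 12 h library or without EV 0 h replicate 2.

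The lines were then compared directly, as the change in the E2F1 line minus the change in the EV line with the same drug. At 6 h the difference was positive for Psmb9 and Tap1 and negative for Psmb10, 3 of 9 genes where 34.5% of all genes were called (22.2% higher, 12.3% lower). At 12 h it was positive for Psmb9, Nlrc5 and Tap1 and negative for Psmb10 and Tapbp, 5 of 9 where 50.5% were called (27.3% higher, 23.3% lower). At 2 h, 0 of 9 passed (0.143% of all genes), and 4 of them, H2-K1, Tapbp, Psmb10 and Nlrc5, had a limma unadjusted p under 0.05. That count too stands without the share of all genes at the same unadjusted p. Without the 4 doxycycline libraries at 2 h the count at 12 h was 3 rather than 5, since Tap1 (adjusted p = 0.0522) and Nlrc5 (adjusted p = 0.0687) no longer passed at unchanged differences. It was also 3 when E2F1 12 h replicate 1, EV 12 h replicate 1 or EV 0 h replicate 2 was left out.

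**Figure D2:**
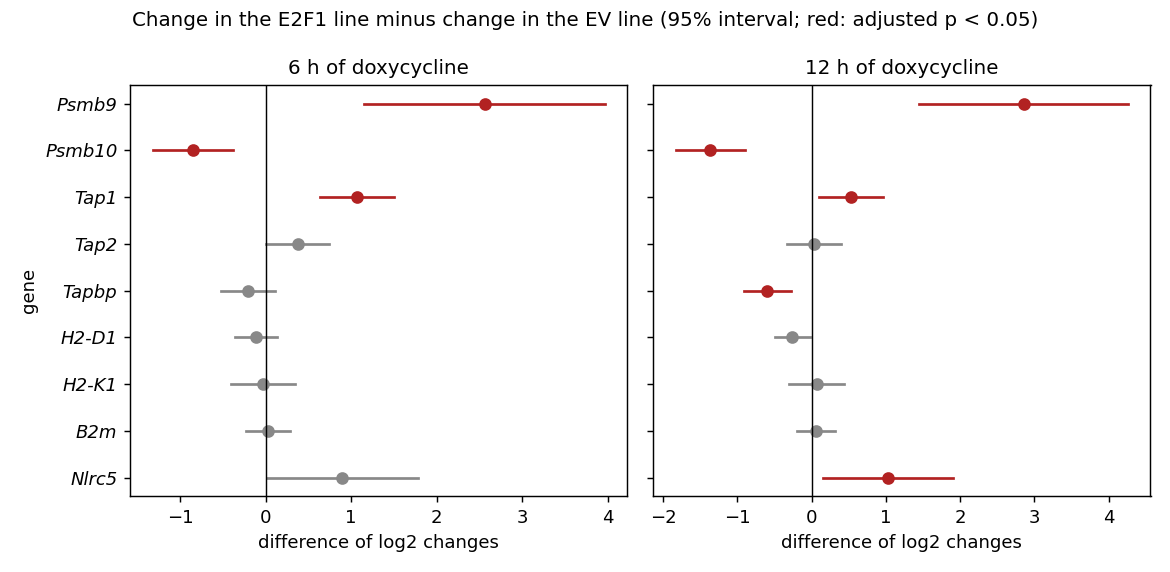
Difference between the lines' log2 changes (x; E2F1 line minus EV line) for each gene (y) at 6 h (left) and 12 h (right) of doxycycline; points are estimates, bars 95% intervals, red marks an adjusted p below 0.05. Psmb9 lies at 2.56 and 2.85 and Psmb10 at -0.85 and -1.36, while the intervals of H2-K1 and B2m include 0 at both times.

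The immunoproteasome subunit Psmb9, which replaces Psmb6 in the assembled particle, had the largest change of the 9 genes in the E2F1 line. In the E2F1 line it was at 128 and 158 normalized counts at 0 h, 152 and 137 at 2 h, 740 and 812 at 6 h, and 854 and 1118 at 12 h. The libraries at 6 and 12 h all stood above those at 0 and 2 h, which overlapped. The log2 change was 2.44 ± 0.47 (SE, n = 2 against 2) at 6 h, a 5.42-fold rise with a limma adjusted p of 0.000335, and 2.77 ± 0.47 at 12 h, a 6.83-fold rise with an adjusted p of 6.18e-05. In the EV line with doxycycline it ranged from 34 to 115 over all 4 times, with the widest pair at 12 h, and the line difference was 2.56 ± 0.67 at 6 h with an adjusted p of 0.0062. By 12 h it was 2.85 ± 0.67 (adjusted p = 0.00167), and 1.99 without EV 12 h replicate 1 or 3.72 without EV 12 h replicate 2, called in both. Of the 9 genes, Psmb9 is the one in the authors' deposited tables of changed genes: the authors' deposited table gives a log2 change of 2.48 at 6 h with an adjusted p of 1.56e-24. The authors' deposited table for 12 h gives 2.79 with an adjusted p of 6.88e-32.

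Psmb10, which takes the place of Psmb7, went the other way. It lies at chr8:105935735-105938444 on the minus strand, outside the MHC. In the E2F1 line it was at 844 and 815 at 0 h, 728 and 689 at 2 h, 579 and 528 at 6 h, and 373 and 464 at 12 h, so that no library at 6 or 12 h reached any at 0 or 2 h. It fell by 0.58 on the log2 scale at 6 h, with an SE of 0.16 and a limma adjusted p of 0.00482. After 12 h the change was -0.99 ± 0.16 (adjusted p = 2.74e-05). The 2 lines did not start level: Psmb10 was 392 and 353 in the EV line at 0 h, a line difference at 0 h of 1.15 ± 0.16 (adjusted p = 0.000137). At 12 h the E2F1 line (373 and 464) overlapped the EV line with doxycycline (456 and 507). The line difference in change was -0.85 ± 0.22 at 6 h, with an adjusted p of 0.00608, and -1.36 ± 0.22 at 12 h, with 5.98e-05. It includes the EV line's own values of 480 and 630 at 2 h, 427 and 471 at 6 h, and 456 and 507 at 12 h, all above its 0 h.

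The constitutive subunits had smaller estimated changes in the E2F1 line. Psmb5, Psmb6 and Psmb7 did not pass at 6 h. At 12 h Psmb7 rose by 0.37 (adjusted p = 0.00762, limma), Psmb5 fell by 0.26 (adjusted p = 0.0281) and Psmb6, at 3752 and 4300 beside 4058 and 3863 at 0 h, did not pass. Within a library of that line, Psmb9 as a percent of Psmb6 was 3.15 and 4.09 at 0 h, 3.82 and 3.23 at 2 h, 21.3 and 22.7 at 6 h, and 22.8 and 26 at 12 h. Psmb10 as a percent of Psmb7 was 33.5 and 31.8 at 0 h, 26.2 and 26.8 at 2 h, 21.5 and 19.5 at 6 h, and 11.8 and 13.7 at 12 h. Both ratios are of counts not corrected for length, and each shows unequal change of its 2 genes. An exact permutation test of 2 against 2 libraries cannot give a two-sided p below 0.333, so these ratios carry no test.

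**Figure D3:**
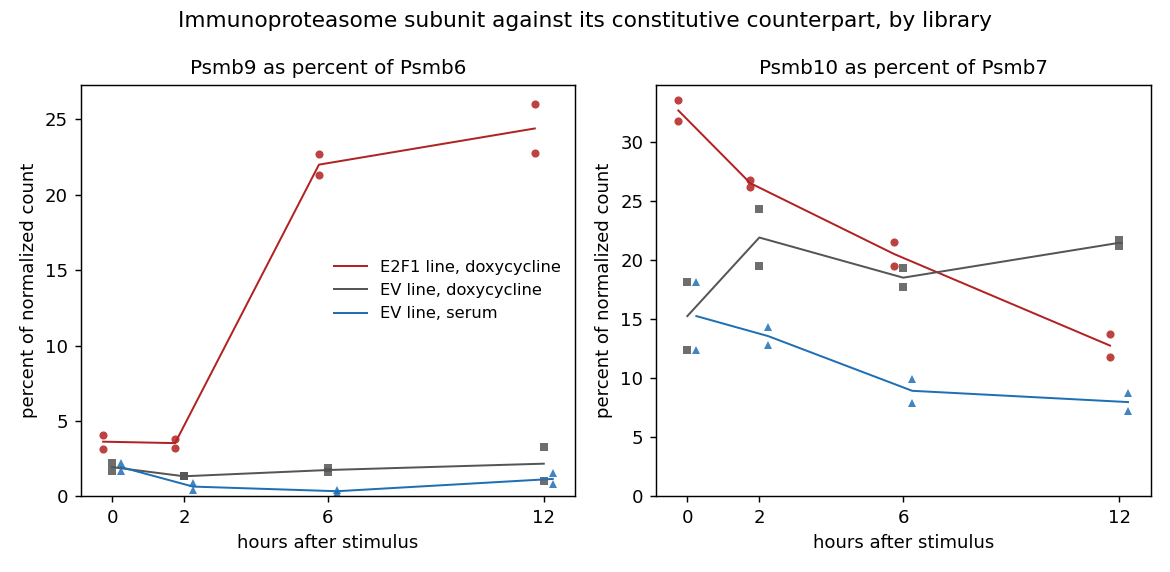
Psmb9 as a percent of Psmb6 (left) and Psmb10 as a percent of Psmb7 (right), on axes starting at 0, against hours after the stimulus; points are libraries and lines join group means. In the E2F1 line the first ratio stands at 21.3 to 26 at 6 and 12 h and the second ends at 11.8 and 13.7.

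Among the transporter subunits, Tap1 had a larger estimated change than Tap2, a difference that was not tested. Both are encoded in the same stretch of chromosome 17. Tap1 in the E2F1 line was at 709 and 943 at 0 h, 1093 and 996 at 2 h, 1804 and 1724 at 6 h, and 1362 and 1350 at 12 h. Its highest libraries were those at 6 h, and those at 12 h lay between 6 h and 0 h. The log2 change was 1.11 ± 0.15 (n = 2 against 2) at 6 h, a 2.16-fold rise with a limma adjusted p of 5.14e-06, and 0.73 ± 0.15 at 12 h (adjusted p = 0.000297). In the EV line with doxycycline it stayed between 804 and 1134. The line difference was 1.07 ± 0.21 at 6 h with an adjusted p of 0.000565. By 12 h it was 0.53 ± 0.21 (adjusted p = 0.0391). The call at 12 h is lost in 10 of its 17 alternative fits, among them those without E2F1 0 h replicate 1 (0.33), E2F1 12 h replicate 1 or 2, EV 12 h replicate 1 (0.37) or EV 0 h replicate 2; adjusted p over the alternatives ran from 0.0089 to 0.216.

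Tap2 (chr17:34203527-34216321, plus strand) was, with the E2F1 construct, at 1491 and 1483 before doxycycline, 1297 and 1279 at 2 h, 2269 and 1993 at 6 h, and 1492 and 1837 at 12 h. It rose at 6 h by 0.52 ± 0.12 (adjusted p = 0.00203, limma), and at 12 h, where its lower library was level with 0 h, the change of 0.15 ± 0.12 did not pass. The line difference at 6 h was 0.38 ± 0.17 (adjusted p = 0.103) and is not called. Its gene model overlaps Gm15821 and Gm20496.

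Tapbp (chr17:33915899-33929292, plus strand), the tapasin gene, was among the most abundant of the set, and with E2F1 it passed only at 12 h. It was at 11518 and 11999 at 0 h, 10922 and 9758 at 2 h, 10708 and 10947 at 6 h, and 8743 and 9961 at 12 h. It fell by 0.33 at 12 h (SE 0.11, adjusted p = 0.0105, limma), a call lost without E2F1 12 h replicate 1 (-0.24) or E2F1 0 h replicate 2 (-0.30). In the EV line with doxycycline it was 9648 and 8042 at 0 h and 10628 and 10527 at 12 h, and the line difference at 12 h was -0.60 ± 0.15 (adjusted p = 0.00265). Before the drug Tapbp exceeded the EV line by 0.42 ± 0.11 (adjusted p = 0.0131), a call lost without either E2F1 0 h library or without EV 0 h replicate 2.

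None of the heavy and light chain genes H2-D1, H2-K1 and B2m passed at 2, 6 or 12 h of doxycycline in the E2F1 line. H2-D1 (chr17:35262730-35267499, plus strand) was, with the E2F1 construct, at 10634 and 9312 before doxycycline, 10802 and 9875 at 6 h, and 10307 and 10645 at 12 h, with overlapping groups; its change at 12 h was 0.07 with a 95% interval of -0.10 to 0.24. H2-K1 (chr17:33996017-34000347, minus strand) was at 1793 and 1964 at 0 h, 1365 and 1339 at 2 h, 1875 and 1962 at 6 h, and 1862 and 2175 at 12 h. The 2 h libraries of H2-K1 were the lowest of that line, at a change of -0.47 ± 0.12 that misses the threshold (adjusted p = 0.0594, limma). H2 heavy chain genes are near-identical copies, and how reads shared between them were counted is not given in the sources used here, so their separate values are uncertain.

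B2m (chr2:122147686-122153083, plus strand), which every class I heavy chain needs to reach the surface, passed in none of the 16 comparisons fitted. Its group means spanned 0.39 on the log2 scale, against 2.46 for Tap1 and 5.79 for Psmb9. It was, with the E2F1 construct, at 8739 and 8924 before doxycycline, 7494 and 8040 at 2 h, 9228 and 9796 at 6 h, and 10164 and 9888 at 12 h. The 2 h libraries lay below 0 h and the later ones above it, with a change at 12 h of 0.18 and a 95% interval of 0.000997 to 0.365 (adjusted p = 0.0751). In the EV line it was at 8726 and 10025 at 0 h, 8096 and 8456 at 2 h of doxycycline, 9699 and 10726 at 12 h of doxycycline and 9335 and 9710 at 12 h of serum.

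Nlrc5 (chr8:94434356-94527272, plus strand), the coactivator that works at class I promoters, was low and variable. In the E2F1 line it was at 133 and 88 at 0 h, 237 and 251 at 2 h, 218 and 209 at 6 h, and 332 and 179 at 12 h. Every library after 0 h stood above those at 0 h. The change was 1.17 ± 0.30 at 2 h (adjusted p = 0.0522, not called, limma), 0.97 ± 0.30 at 6 h with an adjusted p of 0.0107, and 1.16 ± 0.30 at 12 h with 0.00239. With only the groups compared the change at 2 h passed too, as did that of H2-K1, which made 2 of 9. The call at 6 h is lost without E2F1 6 h replicate 1 (0.94) or E2F1 0 h replicate 2 (0.68), and the call at 12 h without E2F1 12 h replicate 1 (0.72), which holds the 332. In the EV line at 0 h it was 163 and 148, above both E2F1-line libraries. The line difference at 12 h was 1.03 ± 0.42 (adjusted p = 0.0488), with a range of 0.59 to 1.47 and of adjusted p from 0.0081 to 0.278 over the alternatives.

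**Figure D4:**
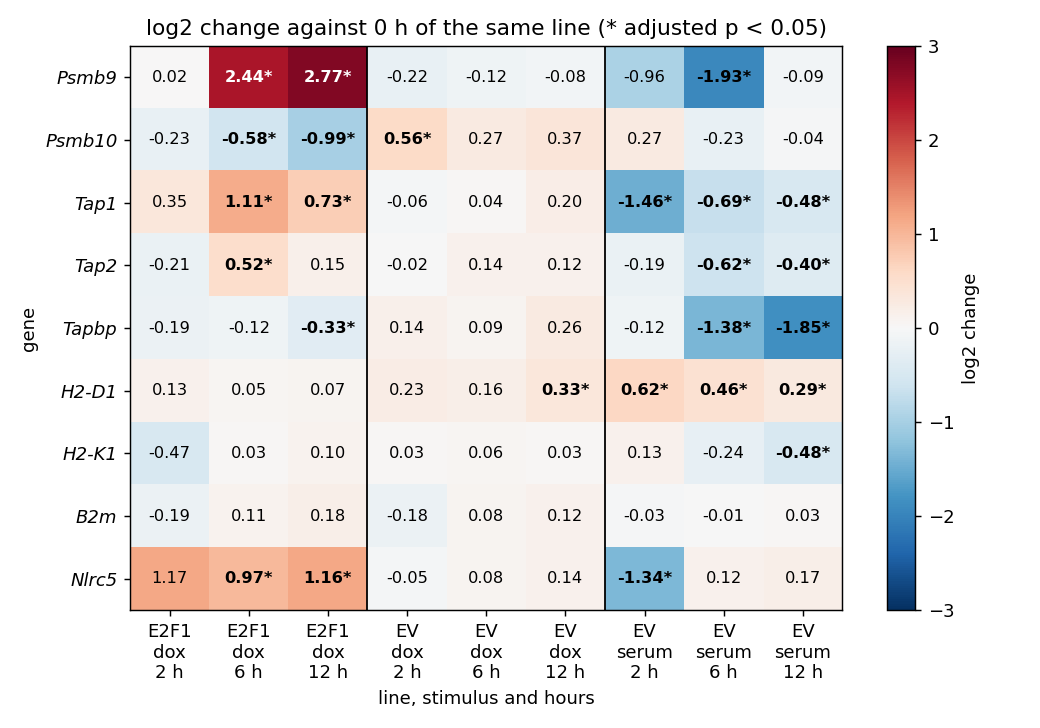
log2 change against 0 h of the same line for each gene (rows) and each line, stimulus and time (columns); color and number give the change, bold with an asterisk marks an adjusted p below 0.05. Psmb9 is at 2.44 and 2.77 in the E2F1 line and Tapbp at -1.38 and -1.85 with serum, while B2m has no asterisk.

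Serum is another stimulus that returns starved fibroblasts to the cycle. With it the transporter genes and Tapbp fell at some or all times, and H2-D1 was above 0 h. Tap1 fell at 2, 6 and 12 h, Tapbp and Tap2 at 6 and 12 h, Nlrc5 at 2 h, Psmb9 at 6 h and H2-K1 at 12 h. The count was 3 of 9 at 2 h (1 up, 2 down), where 70.9% of all genes were called, 37.5% higher and 33.5% lower. It was 5 of 9 at 6 h (1 up, 4 down), beside 67.5% of all genes, 36.5% higher and 31% lower. After 12 h it was 5 of 9 (1 up, 4 down), beside 65.7%, 36% higher and 29.7% lower. At 2 h the count was 5 without EV serum 2 h replicate 2 and 7 with equal library totals. At 6 and 12 h the total called was within about 1 gene of the background share. Over all genes the split into higher and lower depends on the scaling. At 2 h it was 4200 to 3752 as deposited and 2611 to 5907 with equal library totals, and the median log2 change of all genes moved from 0.03 to -0.34 at 2 h and from 0.03 to -0.18 at 6 h. At 6 h of serum the split was 4093 to 3470 as deposited and 2914 to 4772 with equal totals. In the E2F1 line at 6 h it was 3230 to 2569 and 2683 to 3781, with the median at -0.15, and the directions of the class I calls named above were kept.

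Tapbp showed the largest sustained fall with serum. It was at 9648 and 8042 in the EV line at 0 h, 7988 and 8189 at 2 h, 3724 and 3069 at 6 h, and 2502 and 2397 at 12 h. The 2 h libraries overlapped 0 h, and those at 6 and 12 h were below every other library of the series. Its change was -1.38 ± 0.11 at 6 h (adjusted p = 2.32e-09, limma). After 12 h it was -1.85 ± 0.11 (adjusted p = 1.5e-10), to 0.278 of its 0 h level. Tapbp overlaps Gm19412 and Zbtb22.

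Tap1 with serum was at 849 and 917 at 0 h, 304 and 336 at 2 h, 483 and 620 at 6 h, and 635 and 628 at 12 h. It was lowest at 2 h and below every 0 h library throughout. Its log2 changes at 2, 6 and 12 h were -1.46, -0.69 and -0.48 (SE 0.15), with limma adjusted p of 5.28e-08, 0.000427 and 0.00752, the last lost without EV 0 h replicate 2 (adjusted p = 0.0507). Tap2 was at 1035 and 1284 at 2 h, 943 and 769 at 6 h, and 1026 and 968 at 12 h, beside 1387 and 1244 at 0 h. It fell by 0.62 at 6 h with an adjusted p of 0.000219, and its change at 12 h was -0.40 (adjusted p = 0.00879), the last lost without EV 0 h replicate 1 or EV serum 12 h replicate 2. So the direction of Tap1 was opposite under E2F1 and serum, at 6 and at 12 h, each against its own 0 h.

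Psmb9 with serum was at 23 and 49 at 2 h, 23 and 12 at 6 h, and 86 and 45 at 12 h, beside 76 and 58 at 0 h. It fell by 1.93 at 6 h (SE 0.47, adjusted p = 0.00151, limma), and its change was -0.67 with quantile normalization, where it is not called. The 12 h libraries overlapped 0 h. Psmb10 stayed between 286 and 450 with serum and passed at none of the 3 times under the deposited scaling. With quantile normalization it was called higher at 2 h (0.56, limma adjusted p = 0.00345). With equal library totals it was called lower at 6 h (-0.447, limma adjusted p = 0.0181). Over the same times Psmb5, Psmb6 and Psmb7 were higher at each, 3 of 3, where 37.5%, 36.5% and 36% of all genes were higher. These rises are under the deposited scaling. No fit of these constitutive subunits with another scaling is given here, so how far their rises depend on it was not tested. Psmb6 rose by 0.68, 0.60 and 0.72, and Psmb7 by 0.41, 0.52 and 0.87. Psmb9 as a percent of Psmb6 was accordingly 0.44 and 0.226 at 6 h of serum, beside 2.18 and 1.68 at 0 h, and Psmb10 as a percent of Psmb7 was 8.74 and 7.2 at 12 h, beside 18.1 and 12.4.

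H2-D1 with serum was at 15103 and 16855 at 2 h, 14660 and 13979 at 6 h, and 12670 and 12734 at 12 h, above 10514 and 10269 at 0 h. The rise was 0.62 ± 0.08 at 2 h (adjusted p = 1.87e-06, limma), 0.46 ± 0.08 at 6 h with 6.72e-05, and 0.29 ± 0.08 at 12 h with 0.00454. It depends on the scaling: with quantile normalization it was 0.07, 0.10 and 0.10 and not called at any time, and with equal library totals 0.24, 0.25 and 0.21 and called at each. H2-K1 was at 2023 and 2179 at 2 h, 1801 and 1470 at 6 h, and 1314 and 1445 at 12 h, beside 1946 and 1900 at 0 h, and fell by 0.48 at 12 h (SE 0.12, adjusted p = 0.00249). At 12 h doxycycline alone in the same line gave H2-D1 a change of 0.33, and serum against doxycycline at that hour was -0.04 (adjusted p = 0.65), so the value at 12 h was not above its time-matched control. B2m did not pass at any time under that scaling; with quantile normalization it was at -0.50 at 2 h and -0.32 at 6 h, and with equal library totals at -0.40 and -0.22, each called.

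Nlrc5 with serum was at 78 and 47 at 2 h, 199 and 144 at 6 h, and 179 and 171 at 12 h, beside 163 and 148 at 0 h. It fell by 1.34 at 2 h (SE 0.30, adjusted p = 0.000531, limma), with a change of -0.56 and no call under quantile normalization, and did not pass at 6 or 12 h.

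Serum was also set against doxycycline at the same hour in the EV line, which leaves out the 0 h libraries. At 2 h, 4 of 9 genes were called, 1 up and 3 down, beside 67.1% of all genes (35% higher, 32.1% lower). At 6 h, 7 were called, 1 up and 6 down, beside 65.8% (35.8% higher, 30% lower). At 12 h, 5 were called, each down, beside 70.4% (37.9% higher, 32.5% lower). Tap1 and Tapbp were lower at each hour, with log2 differences of -1.40, -0.73 and -0.68 for Tap1 and of -0.27, -1.47 and -2.11 for Tapbp. The Tapbp call at 2 h is lost without any 1 of the 4 libraries compared. Tap2 was lower at 6 h (-0.76) and 12 h (-0.52), Psmb9 at 6 h (-1.81) and Nlrc5 at 2 h (-1.29). Psmb10, which did not pass against 0 h, was lower than with doxycycline at 6 h (-0.50) and 12 h (-0.41). The Psmb10 call at 6 h is lost with quantile normalization (-0.30) and without EV 6 h replicate 2 or EV serum 6 h replicate 2, and that at 12 h without EV 12 h replicate 2 or EV serum 12 h replicate 2 (-0.28). With quantile normalization Psmb9 at 6 h was at -0.61 and not called. H2-K1 was lower at 6 h (-0.30) and 12 h (-0.51). Its call at 6 h is lost with only the groups compared, without either EV 6 h doxycycline library, and without EV serum 6 h replicate 2 (-0.16). H2-D1 was higher at 2 h (0.39) and 6 h (0.30). With quantile normalization it was at -0.18 and -0.05 there, and the first was called lower (limma adjusted p = 0.0499). With equal library totals neither was called. H2-D1 did not pass at 12 h.

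At 0 h, before any stimulus, the lines differed in Psmb10 and Tapbp, both at a higher level with the E2F1 construct, 2 of 9 genes where 15% of all genes were called (8.86% higher, 6.17% lower). Psmb9 was at 128 and 158 in the E2F1 line and 76 and 58 in the EV line, a difference of 1.09 ± 0.47 that did not pass (adjusted p = 0.132, limma). Of 32 interferon-stimulated genes outside class I listed, 14 were in the table. Of these 14, 6 were higher in the E2F1 line at 0 h and 0 lower, with a median difference of 0.55 beside 0.02 for all genes. Among them were Parp14 (2.12), an ADP-ribosyltransferase, Gbp2 (0.91), an interferon-induced GTPase, and Ddx58 (0.86), the RNA sensor RIG-I. Irf1, the transcription factor that carries the interferon response to class I promoters, was 0.54 higher (adjusted p = 0.0305, limma).

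With E2F1, more of these interferon-stimulated genes were lower than higher. At 6 h 0 of 14 rose and 6 fell, with a median log2 change of -0.50, beside 28.8% higher and 22.9% lower of all genes. By 12 h 2 were up and 5 down, with a median of -0.42, beside 31.8% and 29.7%. Of the changes set against the EV line, 2 of 14 were lower and 0 higher at 6 h (12.3% and 22.2% of all genes), and 6 were lower and 1 higher at 12 h (23.3% and 27.3%). Within the E2F1 line, against its own 0 h, Ifi35 (-0.70), Dtx3l (-0.67), Gbp2 (-0.63) and Ifi27 (-0.59) were lower at 6 h. There Ifit2, an RNA-binding antiviral protein gene, was higher at 12 h (0.98). With serum, 10, 11 and 13 of 14 were lower and 0, 0 and 1 higher at 2, 6 and 12 h, with medians of -1.38, -1.28 and -1.18; of all genes 33.5%, 31% and 29.7% were lower. Gbp2 went from 626 and 651 at 0 h to 106 and 106 at 6 h of serum, and Xaf1 from 259 and 255 to 39 and 32.

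Regulators of class I transcription split. Of 31 listed, 28 were in the table. Of these 28, 10 rose and 9 fell at 6 h of E2F1, beside 28.8% and 22.9% of all genes. After 12 h 8 were up and 11 down, beside 31.8% and 29.7%. Of the changes set against the EV line, 6 were higher and 8 lower at 6 h (22.2% and 12.3% of all genes). At 12 h 7 were higher and 11 lower (27.3% and 23.3%). Against 0 h of the E2F1 line, Ezh2, the Polycomb methyltransferase, rose by 1.91 at 6 h and 2.43 at 12 h. Jak2, a kinase of the interferon receptors, rose by 1.34 at 6 h, and Nfyb, a subunit of the CCAAT-binding factor, by 1.29. Irf1 was at 1649 and 1428 at 0 h, 1976 and 2036 at 6 h, and 1556 and 1748 at 12 h in the E2F1 line, and its change at 6 h missed the threshold (0.39, adjusted p = 0.0521, limma). With serum, 13 rose and 8 fell at 2 h; the numbers were 7 and 13 after 6 h, and 5 and 14 after 12 h. The shares of all genes were 37.5% and 33.5%, 36.5% and 31%, and 36% and 29.7%. Irf1 went from 1101 and 1009 at 0 h to 168 and 185 at 2 h, 317 and 222 at 6 h, and 558 and 437 at 12 h of serum. Its log2 changes were -2.57, -1.99 and -1.09, with adjusted p of 9.97e-11, 5.07e-09 and 1.06e-05. Stat2, a transcription factor of type I interferon signalling, changed by -2.40, -1.76 and -1.91.

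The loading and trimming partners of class I include chaperones, proteasome activators and peptidases, and with serum more of them rose than fell. Of 12 tested, 7 were higher at each of 2, 6 and 12 h, and 1, 2 and 4 were lower. Of all genes 37.5%, 36.5% and 36% were higher and 33.5%, 31% and 29.7% lower. This split is under the deposited scaling, and no fit of these partners with another scaling is given here. At 6 h Sec61a1, a subunit of the translocon, rose by 1.83, Pdia3, the oxidoreductase of the loading complex, by 1.40, and Psme3, a proteasome activator subunit, by 1.30, while Tapbpl, the tapasin-like editor, fell by 1.47. With E2F1, 4 rose and 3 fell at either of 6 and 12 h, near the shares of all genes given above. Calr, the chaperone calreticulin, fell by 0.44 at 6 h and 0.93 at 12 h.

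Of 27 other class I heavy chain genes listed, 7 were in the table. With E2F1, 3 fell at 6 h and 0 rose, beside 22.9% lower and 28.8% higher of all genes. After 12 h 3 were up and 3 down, beside 31.8% and 29.7%. There H2-Q4 rose by 1.35 and Cd1d1 (-0.99) and H2-T23 (-0.88) were lower. Of the changes set against the EV line, 0 were higher and 1 lower at 6 h (22.2% and 12.3% of all genes). At 12 h 0 were higher and 3 lower (27.3% and 23.3%), so no rise was called against the EV line. With serum 3, 5 and 5 were lower at 2, 6 and 12 h and 1, 1 and 0 higher, where 33.5%, 31% and 29.7% of all genes were lower. H2-T23, the gene of the Qa-1 heavy chain, went from 554 and 479 at 0 h to 63 and 89 at 12 h of serum, a fall of 2.77 (adjusted p = 8.13e-08, limma).

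Fibroblast markers moved over the same times. After 12 h of E2F1, 10 of 12 fell and 0 rose (median -0.70), beside 29.7% lower and 31.8% higher of all genes. Set against the EV line, 7 were lower and 0 higher at 12 h (23.3% and 27.3% of all genes). After 12 h of serum 8 fell and 2 rose (median -0.91), beside 29.7% and 36%. Csf1r, the 1 myeloid marker present, was higher with serum at 2, 6 and 12 h (1.71, 1.49 and 1.46). The part of these markers in the class I changes was not tested.

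Patterns across the 11 group means were compared with those of 8724 other genes with a mean of at least 500, as a description without a test. Among the most like Tap1 were Vangl2 (Pearson r = 0.983), Stk38 (0.977), Sh3glb2 (0.973) and Phf14 (0.971). Most like B2m were Osbpl6 (0.889), Ctnnb1 (0.851), Mta1 (0.846), Mettl9 (0.822) and Katna1 (0.817), on a pattern with little range. For Psmb9, compared after its values were seen, they were Ppm1d (0.981), Kcnab2 (0.980), Arl6 (0.978), Sgsm3 (0.976) and Prkaca (0.975). Among the class I genes themselves, Tap1 had r of 0.80 with Psmb9, 0.79 with Tap2 and 0.79 with Nlrc5, but -0.80 with H2-D1. These points share libraries and the scaling, and the EV groups share a line.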

How the data were processed

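RNA from 22 NIH/3T3 libraries was sequenced as 150 bp paired-end reads after poly(A) selection, per the labels' protocols. The submitters' processing notes name FastQC, Trimmomatic, HISAT2, featureCounts, DESeq2 and the build mm10, which is GRCm38. Tool versions and roles, the annotation, the use of strand and the scaling are not given in the sources used here. The deposited table holds normalized counts that the authors rounded to whole numbers, so here they have the unit score and no count model was used. The authors' further tables give log2 fold changes and adjusted p-values for changed genes; by their values they list absolute log2 changes of about 2 or more.

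The log2 of each value plus 1 entered a linear model in limma (3.58.1; R 4.3.3). A mean for each of 11 groups was fitted to 22 libraries with 11 residual degrees of freedom and a mean-variance trend, and p-values were adjusted by Benjamini-Hochberg over 11208 genes in each of 16 comparisons, with a threshold of 0.05. A filter of 10 in at least 2 libraries removed 0 genes. The scripts were tested on simulated data. Fold changes on this scale are understated for low genes, and without raw counts the sequencing depth is unknown. The genes, the lists around them and the promoter words were chosen with earlier results of these data known. All class I genes in the table are named; of each further list and comparison up to 4 with the largest change past the threshold are named, with Irf1, Psmb5, Psmb6 and Psmb7. Genes that these rules name but the text does not are not reported here. Gene positions are from GENCODE M21, where 10977 of 11208 identifiers had the same version, and H2-D1 matched by an identifier of another version. Promoters are from RefSeq. Alternatives were other pseudocounts, filters and scalings, a replicate block, fits of fewer libraries and leaving out each library. Their results are given for the class I genes and for counts over all genes, and not for the further lists. ATAC-seq and ChIP-seq of the study were not analysed here.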

Additional observations from a re-analysis of the deposited data

Results flagged for a closer look

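Several genes changed differently with doxycycline in the E2F1 line and in the EV line, by a limma test of the difference between the changes with Benjamini-Hochberg adjustment. At 6 h the difference of log2 changes (E2F1 line minus EV line) was 2.56 for Psmb9, 1.07 for Tap1 and -0.853 for Psmb10. At 12 h it was 2.85 for Psmb9, 1.03 for Nlrc5, 0.532 for Tap1, -0.597 for Tapbp and -1.36 for Psmb10. For Psmb9 all 4 E2F1-line libraries at 6 and 12 h were above all libraries of both lines at 0 h, while for Psmb10 the E2F1 line started above the EV line and ended at its level. At 6 h of the differences 34.5% and at 12 h 50.5% of all genes passed the same test.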

How the results depend on the processing

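Of 51 gene changes past the threshold over the 16 comparisons, 28 stayed past it in the same direction under every alternative run; 11 were lost or reversed with quantile normalization, 4 with equal library totals, 2 without the 4 doxycycline libraries at 2 h, 2 without all 6 libraries at 2 h (an alternative chosen after seeing the data), and 0 with a pseudocount of 8 or the replicate block. A further 24 changes passed only under an alternative, and of 69 that passed in no fit 35 changed sign in at least 1. The cause was not tested.

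With a mean of at least 500, which drops Psmb9, Psmb10 and Nlrc5, the count of class I genes called was 2 for the E2F1 line at 6 h and at 12 h, 1 and 2 for the line difference at 6 and 12 h, 1 for the lines at 0 h and 0 for EV doxycycline at 2 h. With quantile normalization it was 6 for the line difference at 6 h, 2 for the E2F1 line at 2 h and 2 for EV doxycycline at 2 h. With equal totals it was 7 and 8 for serum at 2 and 6 h and 8 for serum against doxycycline at 2 h. The number of all genes called moves with the setting too. With equal totals 2611 of all 11208 genes were higher and 5907 lower at 2 h of serum, and 2914 and 4772 at 6 h. A moved count is therefore not by itself a result about class I genes. With only the groups compared it was 3 for the line difference at 12 h, 1 for the lines at 0 h, 2 for the E2F1 line at 2 h and 0 for EV doxycycline at 2 and 12 h. Without the 4 doxycycline libraries at 2 h, and without all 6 at 2 h, it was 3 for the line difference at 12 h. With a pseudocount of 8 it was 1 for the E2F1 line at 2 h. The replicate block gave 2 there (H2-K1 and Nlrc5). The labels say of same-numbered libraries only that they share a number. Whether they shared a culture or batch was not tested. Over 55 pairs of groups their deviations correlated at -0.277 to 0.455, with a median of 0.031 and 18 above 0.1. The block changed no other count by over 1.5 times.

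Leaving out each library in turn, the count ranged from 3 to 5 for the E2F1 line at 12 h (3 without E2F1 12 h replicate 1), 3 to 5 for the line difference at 12 h, 1 to 2 for the lines at 0 h, 0 to 1 for EV doxycycline at 2 h and at 12 h, and 3 to 5 for serum at 2 h (5 without EV serum 2 h replicate 2). Small changes reversed here for serum at 2 h in B2m (-0.129 to 0.0709) and Tapbp (-0.254 to 0.00821), for serum at 6 h in B2m (-0.105 to 0.0948), and for serum against doxycycline in B2m at 6 h (-0.192 to 0.0204) and H2-K1 at 2 h (-0.102 to 0.291). A group left with 1 library is assumed to vary like the others.

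Changes that reversed with quantile normalization were those of serum against doxycycline in B2m at 2 h (-0.33), H2-D1 at 2 h (-0.184) and 6 h (-0.0484), H2-K1 at 2 h (-0.0771) and Psmb9 at 2 h (0.567), and of serum against 0 h in Psmb10 at 6 h (0.0271) and Psmb9 at 2 h (0.068). With equal totals they were, for serum against doxycycline at 2 h, B2m (-0.245), H2-D1 (-0.00138) and H2-K1 (-0.298), and for serum at 2 h Psmb10 (-0.108). Of these, H2-D1 at both times is past the threshold under the deposited scaling. Some passed it in the reversed direction, all lower with serum than with doxycycline at 2 h. By limma these were B2m (adjusted p = 0.00314) and H2-D1 (0.0499) with quantile normalization. With equal totals they were B2m (0.0154) and H2-K1 (0.0352). The number of libraries, 2 a group, limits the precision, most for Nlrc5 and Psmb9.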
